A study of Arabidopsis thaliana with 3 samples.

Results

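The 8 genes described here encode the Polycomb repressive complex 2 (PRC2) of *Arabidopsis thaliana* and LHP1, the protein that binds the mark PRC2 makes. They were chosen by name and not by a rule on measured values, though with earlier results of these data known. The members were *CLF* (AT2G23380), *SWN* (AT4G02020), *MEA* (AT1G02580), *EMF2* (AT5G51230), *VRN2* (AT4G16845), *FIS2* (AT2G35670), *FIE* (AT3G20740) and *LHP1* (AT5G17690), 8 of 27444 protein-coding genes of the nuclear chromosomes. For each gene the transcribed body, between the transcription start site (TSS) and end site (TES), and the 2 kb on either side were measured.

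DNA methylation was read by whole-genome bisulfite sequencing of mature leaves, in which unmethylated cytosine is read as T and methylated cytosine as C. The level of a region is the number of C calls over all C and T calls. There was 1 wild type library (WT, ecotype Col-0) and there were 2 libraries of plants in which the histone variant H3.3 was knocked down (*h3.3kd*, labelled replicate 1 and 2 and here called rep1 and rep2). By the methods of the study the *h3.3kd* plants were homozygous for the T-DNA alleles *htr4-2* and *htr8-2* and carried an artificial microRNA against *HTR5*, *amiR-HTR5-II*, under the *HTR5* promoter. WT carried none of these. The methods name a pair of transgenic lines for this measurement, *h3.3kd-2* and *h3.3kd-3*, and the labels do not say which line each library came from or how many plants were pooled. An SD over the *h3.3kd* libraries may thus hold the difference between lines and is not that of replicates of 1 line. Depth was 19.2 to 19.7 calls per reference cytosine. The identity of the tissue and the knockdown itself cannot be read from bisulfite calls. WT was not replicated, so Fisher's exact tests compare libraries and not conditions, intervals cover counting error only, and 0.333 is the smallest p of an exact two-sided permutation test with 1 library against 2. The knockdown and any difference in ancestry between the *h3.3kd* lines and WT cannot be told apart.

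PRC2 places methyl groups on lysine 27 of histone H3 (H3K27me3), a mark that keeps developmental genes silent. *CLF*, *SWN* and *MEA* encode the catalytic subunit, *EMF2*, *VRN2* and *FIS2* the zinc finger subunit of the Su(z)12 type, and *FIE* the WD40 subunit shared by the PRC2 forms. LHP1 binds H3K27me3 through its chromodomain. *CLF*, *SWN*, *EMF2*, *VRN2*, *FIE* and *LHP1* act in the plant body. *MEA* and *FIS2* act in the endosperm of the seed, where they are imprinted and expressed from the maternal copy, and DNA methylation near these genes is part of that control. Leaves hold no endosperm. DNA methylation occurs at CG, CHG and CHH sites (H is A, C or T). Many expressed plant genes carry CG methylation in the body alone, while silenced repeats carry all of these contexts.

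The sequences that the results below refer to are shown first. They hold called CG sites of the gene bodies, the upstream windows of *MEA* and *FIE* where CG methylation differed and, for comparison, an upstream window of *FIS2* in which no CG was called. All sequences were read from TAIR10.1, whose nuclear coordinates are those of TAIR10, and run 5′ to 3′ on the strand of the gene. The windows were chosen after their values were seen. In the *MEA* and *FIS2* windows capitals mark every CG, and in the others they mark the CG dyads called different in both *h3.3kd* libraries (a dyad is a CG with its partner on the other strand).
*MEA* upstream, chr1:544201-544300, plus strand, gained methylation in *h3.3kd*: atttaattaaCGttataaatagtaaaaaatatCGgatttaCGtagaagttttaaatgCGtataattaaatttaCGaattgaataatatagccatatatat
*FIS2* upstream, chr2:14991801-14991900, plus strand, methylated in every library: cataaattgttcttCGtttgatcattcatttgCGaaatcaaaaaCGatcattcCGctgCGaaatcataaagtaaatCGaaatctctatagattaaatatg
*EMF2* intron, chr5:20828601-20828700, plus strand, lost methylation in *h3.3kd*: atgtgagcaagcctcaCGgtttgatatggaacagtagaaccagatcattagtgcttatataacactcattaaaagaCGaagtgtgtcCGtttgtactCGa
*LHP1* coding exon, chr5:5828056-5828100, minus strand, lost methylation: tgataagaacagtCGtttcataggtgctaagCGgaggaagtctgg
*CLF* coding exon, chr2:9958176-9958215, plus strand, lost methylation: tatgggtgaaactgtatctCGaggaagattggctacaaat
*CLF* coding exon, chr2:9957652-9957691, plus strand, gained methylation: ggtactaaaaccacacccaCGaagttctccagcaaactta
*FIE* coding exon, chr3:7250281-7250320, minus strand, gained methylation: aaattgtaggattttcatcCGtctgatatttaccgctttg
*FIE* upstream, chr3:7253876-7254015, minus strand, lost methylation: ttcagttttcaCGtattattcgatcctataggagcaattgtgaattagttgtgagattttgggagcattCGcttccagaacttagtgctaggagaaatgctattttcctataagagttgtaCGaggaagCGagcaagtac

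The gene bodies fell into 2 kinds. The 6 genes that act in the plant body carried CG methylation at 30.3% to 50.7% in WT, above the median of 5.18% over 26970 genes tested. The bodies of *MEA* and *FIS2* were unmethylated, at 0.649% and 0.557%, and stayed so in *h3.3kd*. CG methylation was lower in *h3.3kd* in *EMF2*, *VRN2* and *SWN*. No member was called higher. A gene was called where the false discovery rate (FDR) of Fisher's exact test, adjusted over all genes, was under 0.01 in each *h3.3kd* library against WT with the same sign. By that rule 3 of 8 members were lower, where 19.0% of all tested genes were lower and 4.84% higher. Members and genome differed in level to begin with. Of the 7285 tested genes with a WT level of at least 20%, a group chosen after the values were seen, 36.2% were lower, and their median difference was -3.08 percentage points. The 6 methylated members had a median difference of -4.20 points, with 3 of them called. At an unadjusted p under 0.05 in both libraries, Fisher's exact test had 4 members lower and 0 higher, where 25.4% of all tested genes were lower and 7.2% higher. These unadjusted shares were not computed for the genes at 20% or more in WT.

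*EMF2* lies on chromosome 5 from 20823644 to 20829644, plus strand. Its body stood at 36.2% in WT (4333 calls), 28.7% in rep1 and 24.4% in rep2. Both *h3.3kd* libraries were below WT, and they differed from each other as well. The mean of *h3.3kd* was 26.5% ± 3.10 (SD, n = 2), and the difference of -9.64 points was -26.6% of the WT level, with FDRs of 1.49e-12 and 1.08e-31 by Fisher's exact test. This was the largest change of a member's body. The 10-point rule, which asks for an FDR under 0.01 and 10 points in both libraries, was passed by no member, and in its lower direction by 1.44% of tested genes.

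*VRN2*, whose protein is known for keeping the flowering repressor *FLC* silent after winter, lies on chromosome 4 from 9476069 to 9479878, plus strand. Its level was 30.3% in WT (2757 calls), 24.0% in rep1 and 23.9% in rep2. The *h3.3kd* libraries stood close together and below WT. The difference was -6.31 points (SD of *h3.3kd* 0.0810, n = 2), with FDRs of 1.38e-06 and 3.79e-07 by Fisher's exact test.

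*SWN*, the catalytic subunit that acts beside CLF, lies on chromosome 4 from 886580 to 891987, plus strand. It stood at 30.9% in WT (4276 calls), 27.1% in rep1 and 24.5% in rep2. Its mean difference was -5.09 points (SD 1.82, n = 2), with FDRs of 0.000502 and 4.25e-10 by Fisher's exact test. Both *h3.3kd* libraries were lower, with a gap between them smaller than the gap to WT.

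*CLF*, on chromosome 2 from 9955092 to 9960386, plus strand, is the main catalytic subunit of the plant body and had the highest level of the 8. Its values were 50.7% in WT, 48.2% in rep1 and 46.6% in rep2. The FDRs were 0.0361 and 0.000147 by Fisher's exact test, so that the gene was not called by the rule but would be without rep1, at a difference of -4.13 points. *FIE*, on chromosome 3 from 7248809 to 7252452, minus strand, had 33.3%, 31.6% and 30.1% in the same order, with FDRs of 0.271 and 0.0150. *LHP1*, on chromosome 5 from 5827142 to 5829763, minus strand, had 37.3%, 33.9% and 35.2%, with FDRs of 0.0396 and 0.254. Neither was called, and the *h3.3kd* values of these 3 genes all lay below WT.

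In the order of WT levels the 95% Wilson interval of *CLF* overlapped that of no other member. Below it came *LHP1*, *EMF2*, *FIE*, *SWN* and *VRN2*, each with an interval that overlapped the next. In rep2 *EMF2* stood beside *SWN* and *VRN2* at the low end of this group. CHG and CHH methylation was between 0.453% and 0.896% in every body in every library, with no member called in either context.

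**Figure D1:**
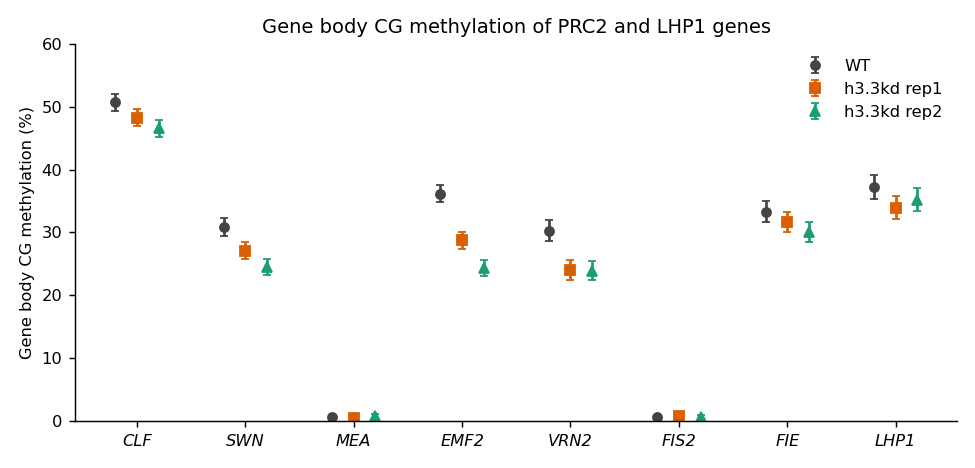
Gene body CG methylation (%, vertical axis) of the 8 genes in WT and both *h3.3kd* libraries, each point 1 library with its 95% Wilson interval, which covers counting error only. *EMF2* showed the widest gap, from 36.2% in WT to 28.7% and 24.4%, and *MEA* and *FIS2* lay at the bottom of the axis in every library.

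The difference was not spread evenly along the genes. In the 3′ 30% of *EMF2* the CG level was 39.1% in WT, 19.5% in rep1 and 9.35% in rep2. In its 5′ 30% it was 23.0%, 22.7% and 21.2%, and in the middle 45.5%, 47.4% and 45.6%. The change of *EMF2* thus lay at its 3′ end, where the mean difference was -24.7 points. *SWN* had 33.9% in WT, 20.4% in rep1 and 18.7% in rep2 in the 3′ 30%, and 17.6%, 19.7% and 16.5% in the 5′ 30%. *LHP1* had 63.5%, 52.4% and 54.5% at the 3′ end and under 1% at the 5′ end in every library. *CLF* differed by -8.84 points at the 3′ end, most of it in rep2, which had 38.4% against 48.3% in rep1 and 52.2% in WT. *VRN2* differed by -7.10 points in the 5′ 30%, -8.17 points in the middle and -3.47 points in the 3′ 30%, the one gene of the 6 with its smallest difference at the 3′ end. *FIE* differed by -5.45 points at the 3′ end. Over the genes with a WT level of at least 20%, the median difference was -0.0686 points in the 5′ 30%, -2.77 points in the middle and -5.19 points in the 3′ 30%. In 8.52% of them the 3′ 30% was lower by at least 20 points, as in *EMF2*. These parts of the gene were described without a test.

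At single sites most dyads were either methylated or unmethylated in WT. In the 6 methylated bodies 529 CG dyads had at least 10 calls in every library, with a median of 42 calls. Of these, 215 were at 60% or more in WT, 310 were under 10%, and 4 lay between. Among the 215 methylated dyads 164 were still at 60% or more in both *h3.3kd* libraries and 18 were under 10% in both. Over all gene bodies 7.29% of methylated dyads were under 10% in both *h3.3kd* libraries. Of the 310 unmethylated dyads 7 were at 60% or more in both. With *MEA* and *FIS2* counted as well it was 7 of 500, where the share over all gene bodies was 0.891%. That share takes in genes with unmethylated bodies, and none was computed for bodies of like level.

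The rule for a dyad asked for 20 points in the same direction in both libraries and, by Fisher's exact test, an FDR under 0.01 in each. This gave 32 lower and 9 higher dyads in the members, of 720 tested, where 2.37% of gene body dyads were lower and 1.20% higher. All 41 lay in the 6 methylated genes. *EMF2* had 13 lower and 3 higher, *SWN* 6 lower and 0 higher, *CLF* 4 lower and 4 higher, *FIE* 4 lower and 1 higher, *VRN2* 3 lower and 0 higher, and *LHP1* 2 lower and 1 higher. Coding exons held 22 of the lower dyads, introns 8 and untranslated regions 2. Of the higher dyads 6 were in coding exons and 3 in introns. In windows of 100 bp with at least 20 calls, the same rule gave 21 lower and 6 higher of 294, where 3.91% of gene body windows were lower and 1.57% higher. Members and genome differed in level here too. Of the 720 member dyads 215 were at 60% or more in WT, against 273974 of 1613625 over all gene bodies. A site under 20% in WT cannot be called lower by this rule. The shares for dyads and windows were not matched for WT level. *MEA* and *FIS2* had no called dyad and no called window in their bodies.

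The 5 body dyads with the largest change, ranked by the smaller of the 2 library differences, lay in *CLF* and *EMF2*. The dyad of *CLF* at 9958195, 3103 bp from the TSS in a coding exon, went from 100% in WT (39 calls) to 2.27% in rep1 and 0% in rep2. Its site is the one in capitals in the *CLF* sequence that lost methylation. The *CLF* dyad at 9960000 went from 97.8% to 2.38% and 0%. In the opposite direction the *CLF* dyad at 9957671 was at 0% in WT (27 calls), 91.7% in rep1 and 97.6% in rep2. Losses and gains of this kind thus stood side by side in the coding sequence of *CLF*. In *EMF2* the dyads at 20826649 and 20828463 were at 94.4% and 92.2% in WT and at 0% in both *h3.3kd* libraries, each 0 resting on at least 30 calls.

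Of the 13 lower dyads of *EMF2*, 7 lay close together. From 20828377 to 20828698, a stretch over a coding exon and introns within the 3′ 30%, these 7 were at 80.0% to 95.1% in WT, at most 15.6% in rep1 and at most 1.75% in rep2. The 100-bp window from 20828401 fell from 92.2% to 0% in both libraries and the window from 20828601 from 85.3% to 6.49% and 0%. The 4 dyads in capitals in the *EMF2* sequence stood at 80.0%, 91.2%, 85.3% and 85% in WT, at 4.55%, 15.6%, 4.26% and 2.04% in rep1 and at 0% in rep2. The 3 higher dyads of *EMF2* were single sites nearer the 5′ end, at 20825038 (4.65% in WT, 95.2% and 92.0% in *h3.3kd*), at 20825630 (64.6% in WT, 98.2% and 95.9%) and at 20826303 (0% in WT, 89.6% and 90.3%).

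The other genes had fewer such sites. In *LHP1* the neighbouring dyads at 5828068 and 5828086 were at 87.9% and 88.0% in WT, at 2.38% and 0% in rep1 and at 2.78% and 0% in rep2. They make up the *LHP1* window from 5828001, which fell from 87.9% to 1.16% and 1.35%. In *SWN* 3 dyads from 891080 to 891096 were at 66.7% to 97.6% in WT, at 5.26% to 34.0% in rep1 and at 0% in rep2, so the libraries of the knockdown were not alike there. In *VRN2* the dyads at 9476819 and 9477065 went from 85.3% and 89.1% in WT to 0% in both *h3.3kd* libraries. In *FIE* the dyad at 7250165 went from 90.4% to 0% in both, and the dyad at 7250300, in capitals in the *FIE* exon sequence, from 0% to 86.3% and 85.4%. The uncalled CG of that sequence was at 92% in rep1 and at 7.69% in rep2. In the 6 bodies 31 of 529 dyads differed by at least 20 points between the *h3.3kd* libraries, a count without a test. The 41 called against WT also needed an FDR under 0.01 and the same sign in both libraries, so these counts are not on 1 rule.

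**Figure D2:**
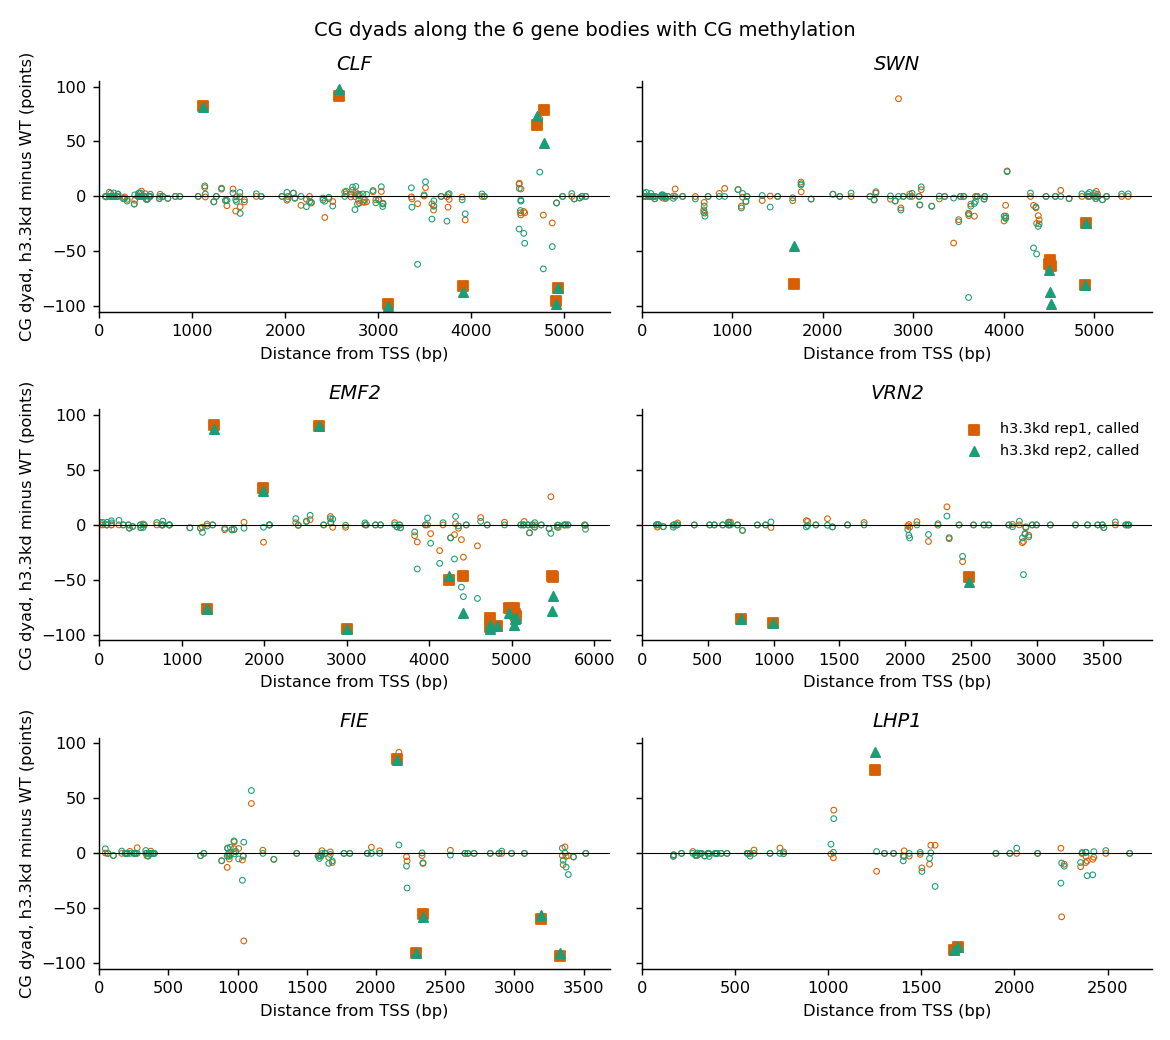
Difference of each CG dyad from WT (percentage points) against its distance from the TSS (bp) in the 6 methylated gene bodies, with 1 mark per dyad and *h3.3kd* library and filled marks for called dyads. Most dyads lay near 0 and the called ones lay far from it, with 7 losses of *EMF2* between 4733 and 5054 bp from its TSS.

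The flanks were called by the rule for bodies. Of the 16 flanks 6 were lower in CG (upstream of *CLF*, *EMF2*, *VRN2* and *FIE*, and downstream of *CLF* and *EMF2*) and 1 was higher (upstream of *MEA*). Over all genes 12.9% of upstream flanks were lower and 3.97% higher, and 16.5% of downstream flanks were lower and 4.24% higher. A single higher flank of 16 cannot speak for imprinted genes as a group, and no flank of *FIS2*, the other imprinted gene, was called.

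The 2 kb upstream of *MEA* (chromosome 1, 544733 to 549202, plus strand) were unmethylated in WT, at 0.496% CG (1814 calls), and stood at 16.3% in rep1 and 15.2% in rep2. The *h3.3kd* libraries were alike and far from WT. The difference was 15.2 points (SD of *h3.3kd* 0.793, n = 2), with FDRs of 3.68e-78 and 5.66e-72 by Fisher's exact test. Of 27243 upstream flanks 38 had a larger rise in the library that rose less, and 0.367% passed the 10-point rule upward. Outside the neighbouring gene AT1G02575 the level went from 0.750% to 36.4% and 34.3%.

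That gain came from 1 window, chr1:544201-544300, between 433 and 532 bp before the TSS and in no annotated gene. CG there stood at 1.90% in WT (210 calls, 95% Wilson interval 0.743% to 4.79%), 83.3% in rep1 (79.0% to 86.8%) and 83.5% in rep2 (79.1% to 87.1%). All 5 CG dyads of the *MEA* sequence were called. In their printed order they stood at 2.17%, 2.27%, 0%, 0% and 6.67% in WT, at 83.8%, 95%, 78.3%, 78.3% and 78.7% in rep1, and at 83.8%, 83.8%, 82.6%, 90.3% and 75.9% in rep2. The other contexts moved with CG in this window. CHH was at 0.571% in WT, 16.1% in rep1 and 17.9% in rep2, and the single CHG cytosine was at 0% (30 calls), 18% and 15%. The next dyad towards the gene and the next away from it were not called, and none of the other 36 tested dyads in the flank was. Read depth in the window was 21.8 calls per cytosine in WT, 33.9 in rep1 and 31.6 in rep2, and the part of depth in the result was not tested. None of its 71 overlapping 30-base words was found elsewhere in the nuclear genome.

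Downstream of *MEA*, a stretch from 549501 to 551000 was methylated in every library. Its CG level was 79.9% in WT, 78.2% in rep1 and 79.2% in rep2. Over the whole 2 kb CG was 48.9%, 46.7% and 46.8% (FDRs 0.407 and 0.396). Non-CG methylation of that flank was lower in *h3.3kd*, with CHG at 24.2% in WT (872 calls), 15.4% and 15.8% (FDRs 0.000681 and 0.00127) and CHH at 8.88%, 7.21% and 6.57% (FDRs 0.00535 and 6.77e-06), all by Fisher's exact test. Over all genes 1.67% of downstream flanks were lower in CHG and 2.48% in CHH. With positions inside other genes left out, or with 1 kb, the direction held and the FDR rule was not met. The stretch is repetitive: 56.5% of its 30-base words occurred more than 1 time in the genome, most of them within the stretch itself, and 126 of its 372 cytosines had no call in WT. Depth was 16.5 calls per cytosine in WT against 12.7 and 13.2 in *h3.3kd*, and its part in the result was not tested.

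*FIS2* (chromosome 2, 14992565 to 14996756, plus strand) had a methylated stretch upstream as well, from 14991501 to 14991900. The stretch was at 90.9% CG in WT, 92.7% in rep1 and 91.0% in rep2, and the 6 CGs of the *FIS2* sequence stood between 83.1% and 100% in WT and both knockdown libraries. Over 2 kb the *FIS2* level was 35.0% in WT, 32.3% in rep1 and 32.6% in rep2 (FDRs 0.152 and 0.225 by Fisher's exact test). CHG in the stretch was 22.9%, 19.2% and 15.9%, and CHH 2.15%, 2.76% and 2.97%. No flank of *FIS2* was called in any context. The FIS2 protein works with MEA in the endosperm. The upstream flanks of these genes differed in CG, 1 with a window methylated in *h3.3kd* alone and 1 with a stretch methylated in every library.

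**Figure D3:**
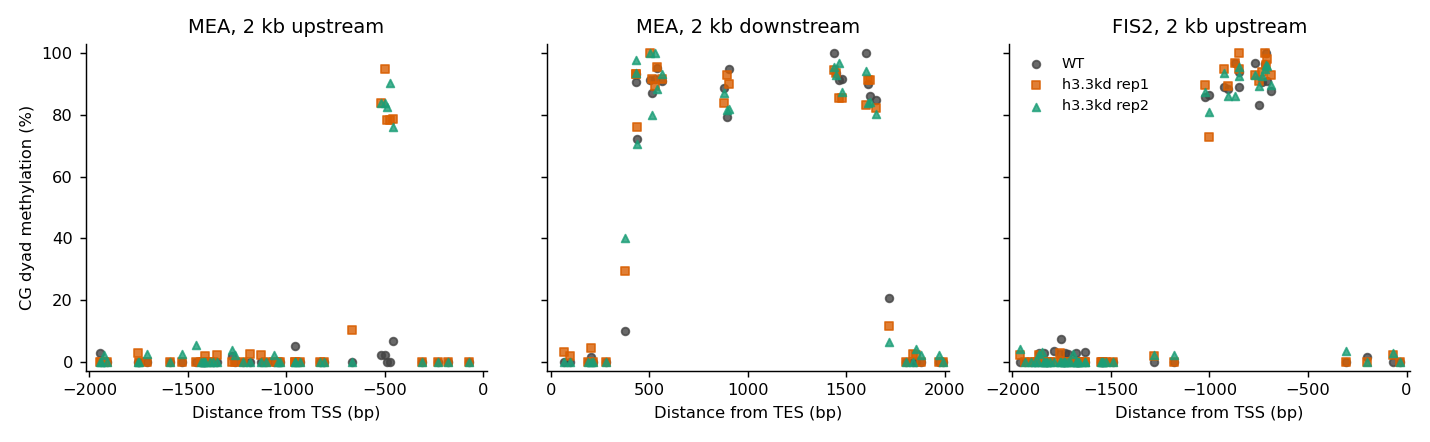
CG methylation (%) of single dyads in the 2 kb upstream and downstream of *MEA* and upstream of *FIS2*, against the distance from the TSS or TES (bp), in WT and both *h3.3kd* libraries. The 5 *MEA* dyads near -500 bp stood at 0% to 6.67% in WT and at 75.9% to 95% in *h3.3kd*, while the methylated groups downstream of *MEA* and upstream of *FIS2* held all 3 libraries.

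Upstream of *FIE* no gene is annotated, and a stretch from 7253401 to 7254400, 949 to 1948 bp before the TSS, was methylated. CG in it stood at 82.5% in WT (1564 calls), 72.1% in rep1 and 72.0% in rep2. The 2 kb flank had 53.2%, 47.6% and 45.4%, with FDRs of 0.00106 and 8.91e-07 by Fisher's exact test. CHG in the flank was 14.9% in WT (1058 calls), 4.50% in rep1 and 6.11% in rep2 (FDRs 1.37e-12 and 6.60e-09), and CHH 2.43%, 1.59% and 1.59% (FDRs 0.000131 and 5.03e-05). All contexts were thus lower in both knockdown libraries. Over all genes 2.35% of upstream flanks were lower in CHG and 3.71% in CHH.

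Within the *FIE* stretch the loss of CG was strongest in adjoining windows. The window from 7253801 was at 50.6% CG in WT, 5.48% in rep1 and 1.20% in rep2, and the next window from 7253901 at 73.5%, 37.4% and 38.5%. CHG of that second window was 26.2% in WT, 2.08% and 0%, and of the window from 7254001 it was 39.4%, 8.98% and 5.03%. The window from 7253501, nearer the gene, kept its CG at 93.3%, 92.0% and 93.7%. Outside CG the loss was wider. In every window of the stretch with CHG calls, CHG was below WT in both *h3.3kd* libraries, by little in some. CHH was below WT in both in every window. The window from 7254301 had CHG at 14.5%, 3.72% and 11.1%, and CHH at 13.3%, 6.92% and 7.52%. The 4 called dyads in the *FIE* upstream sequence ranged from 37.8% to 76.8% in WT, from 2.63% to 40.8% in rep1 and from 0% to 29.8% in rep2. Depth in the stretch was 33.1 calls per cytosine in WT, 25.5 in rep1 and 27.3 in rep2, and its part was not tested.

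**Figure D4:**
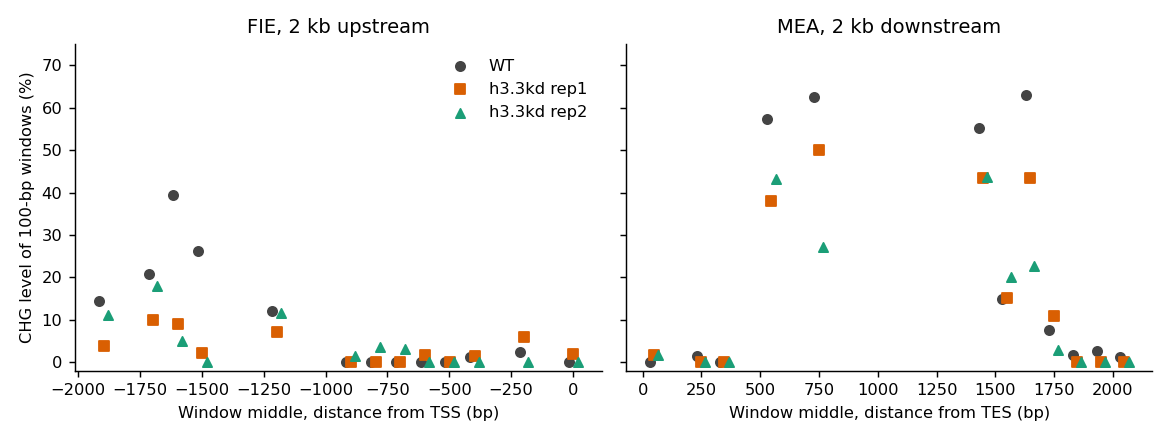
CHG level (%) of 100-bp windows with at least 10 CHG calls in every library, upstream of *FIE* and downstream of *MEA*, against the distance of the window middle from the TSS or TES (bp, marks of the libraries shifted sideways by 18 bp). WT lay above both *h3.3kd* libraries in the *FIE* window with 39.4% in WT, where they had 8.98% and 5.03%, and in 4 of the 7 *MEA* windows drawn within the methylated stretch.

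The remaining changes in flanks lay inside neighbouring genes. Upstream of *VRN2* the CG level went from 27.5% in WT to 14.2% and 8.97% in *h3.3kd* (FDRs 1.48e-23 and 5.55e-49 by Fisher's exact test), past the 10-point rule, as in 2.13% of upstream flanks. All 5 called dyads there, 4 of them at 0% in rep1, were in coding exons of AT4G16835, and the *VRN2* flank outside genes was at 0% in WT, 1.30% and 0.417%. Upstream of *CLF* the level was 40.02%, 31.3% and 25.3% (FDRs 7.66e-09 and 4.16e-25), all within AT2G23370, and downstream it was 64.2%, 58.5% and 58.3% (FDRs 0.00253 and 0.00163), all within AT2G23390. Upstream of *EMF2* it was 20.9%, 15.5% and 17.2% (FDRs 3.55e-05 and 0.00832 by Fisher's exact test). The called dyads there, 3 lower and 2 higher, lay in AT5G51220. Downstream of *EMF2* it was 2.56%, 0.682% and 0.558% (FDRs 5.01e-05 and 6.67e-06 by Fisher's exact test), where the 1 called dyad, a lower one, lay in AT5G51250. With positions inside other genes left out, the lower flank of *FIE* and the higher flank of *MEA* were still called, while the flanks of *CLF* held no such position.

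In CG, 2 flanks were past the FDR in 1 *h3.3kd* library alone. A gap between these libraries was not particular to them. In the called flanks upstream of *CLF* and *VRN2*, rep2 minus rep1 was -6.00 and -5.22 points. Upstream of *SWN* the CG level was 11.6% in WT, 4.40% in rep1 and 10.2% in rep2. Downstream of *FIE* it was 23.1%, 30.5% and 22.0%. Each was past the FDR in rep1 (3.19e-15 and 2.63e-06 by Fisher's exact test) and not in rep2 (0.354 and 0.656), and neither was called.

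**Figure D5:**
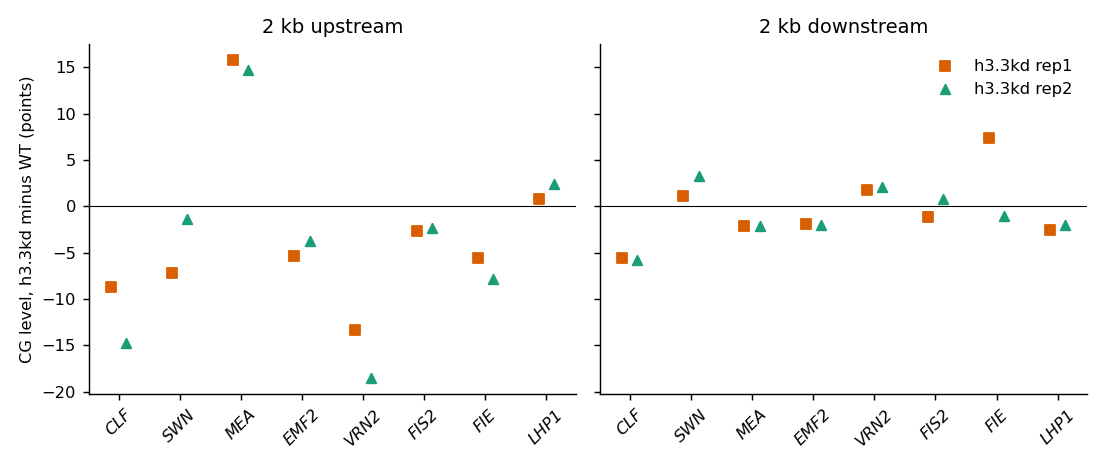
Difference of the CG level of the 2 kb upstream and downstream flanks from WT (percentage points, vertical axis) for each of the 8 genes, 1 mark per *h3.3kd* library. The upstream flank of *MEA* stood alone above 10 points, and those of *VRN2* and *CLF* were the lowest.

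The other genes of the Polycomb pathway gave the setting for these bodies. Of 30 listed genes, all tested, 10 were lower and 1 was higher in gene body CG, against 19.0% lower and 4.84% higher over all tested genes and 36.2% lower over those at 20% or more in WT. The 30 genes had a median difference of -1.56 points and a median WT level of 20.5%. The median over all 26970 tested genes was -0.221 points. None passed the 10-point rule. The 5 called genes with the largest differences were all lower. *EBS*, a reader of histone marks in floral repression, was at 46.3% in WT, 38.9% in rep1 and 37.4% in rep2. *PWO1*, which binds PRC2, was at 34.9%, 28.2% and 27.6%. The other 3 encode demethylases of the JmjC type. *REF6*, which takes off H3K27me3, was at 45.9%, 41.2% and 39.6%, its relative *ELF6* at 27.9%, 23.9% and 22.8%, and *JMJ13* at 26.1%, 22.9% and 19.1%. In each of these genes both *h3.3kd* libraries were below WT, with FDRs of at most 0.000883 by Fisher's exact test. The higher gene was *TRB2*, a telomere repeat binding factor, at 6.31%, 9.46% and 9.25%, and *MSI1*, the WD40 partner of FIE in PRC2, was not called at 6.76%, 6.34% and 7.18%.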

How the data were processed

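Groups followed the genotype in each label. The study aligned reads to TAIR10 with BS Seeker and collapsed identical reads. The authors deposited, per library and cytosine, raw counts of reads with C and with T. Between 1.23% and 1.25% of cytosines had these counts on several lines, which were summed by position. No listed position lay off a cytosine of its strand. Genes came from the TAIR10.1 annotation.

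Gene bodies and flanks needed at least 10 cytosines of the context and 100 calls in every library, 100-bp windows 20 calls and CG dyads 10 calls. Each *h3.3kd* library was tested against WT by two-sided Fisher's exact test with Benjamini-Hochberg adjustment over all features. limma 3.58.1, on log2 ratios of C to T counts with 0.5 added, was an alternative, with its spread from the *h3.3kd* pair. Code was tested on simulated data. The members and lists were chosen with earlier results of these data known. All members were named, with the called pathway genes (at most the 5 with the largest differences) and the 5 called body dyads with the largest smaller difference. Other sites, *TRB2* and *MSI1* were named after their values were seen.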

Additional observations from a re-analysis of the deposited data

How the results depend on the processing

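No paired analysis was possible because there was only 1 WT library. limma, whose spread rests on the *h3.3kd* pair, called 0 members and 0 pathway genes in either direction at an FDR under 0.05, and 0 of 26970 genes. At an unadjusted p under 0.05 it had 2371 genes lower and 1571 higher, among them 0 members and 1 pathway gene. The 10-point rule also left 0 members and 0 pathway genes. With a flank of 1 kb, or with other genes left out, 1 flank was lower in place of 6, downstream of *CLF* in the first case and upstream of *FIE* in the second. With 40 points 10 windows were lower and 3 higher in the bodies, in place of 21 and 6.

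Leaving out 1 *h3.3kd* library gave 3 to 4 lower members, 10 lower pathway genes becoming 11 to 12, and 1 to 2 higher flanks, the second being that downstream of *FIE* without replicate 2. Some differences changed sign. *MEA* body CG (-0.056 points) was 0.294 points in coding exons and 0.0419 points as a mean of dyads, and -0.194 to 0.0825 points without 1 library. Without 1 library the differences were -0.0728 to 0.715 points (0.321 with both) for CHG upstream of *MEA*, -1.19 to 0.79 (-0.2) for CG downstream of *FIS2* and -1.05 to 7.39 (3.17) for CG downstream of *FIE*. With 1 kb, -16.0 points upstream of *VRN2* became 0.202, -11.7 upstream of *CLF* became 0.104, and -9.63 for CHG and -0.844 for CHH upstream of *FIE* became 0.511 and 0.00833. Among flanks not called, 1.92 downstream of *VRN2* became -0.225, -2.47 upstream and -0.2 downstream of *FIS2* became 0.0596 and 2.78, and -2.32 downstream of *LHP1* became 0.642. Upstream of *FIE* the methylated stretch lies beyond 1 kb for the most part. With other genes left out the difference upstream of *VRN2* was 0.861, and CHH upstream of *FIS2* went from -0.075 to 0.0072. The cause was not tested. The median of 42 calls per dyad limits the precision of single sites, and dyad changes under 20 points were left uncalled by the rule itself.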
